A study of Mus musculus with 8 samples.

Results

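Glycolysis and its hypoxia-responsive branch were followed through 10 genes in mouse pancreatic ductal adenocarcinoma (PDAC) cells in which *Smad4* could be switched off and on. The genes were chosen by name and encode a glucose transporter (*Slc2a1*), the glycolytic enzymes *Hk1*, *Hk2*, *Pfkp*, *Aldoa*, *Pgk1* and *Ldha*, the kinase *Pdk1*, the lactate exporter *Slc16a3* and the carbonic anhydrase *Car9*. The choice was made with earlier results of these data known. They are 10 of the 53465 genes in the count table, and all 10 passed the filter on low counts that kept 14301 genes for testing. The symbol *Aldoa* stands in 2 rows of the table, so that 11 rows carry the 10 names. The main *Aldoa* row (ENSMUSG00000030695) is the one described throughout, and the other (ENSMUSG00000114515) is given separately.

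The cells were 2 primary lines, KCS-B73 and KCS-B87, each grown from the pancreatic tumor of a mouse with *Ptf1a-Cre*, a Cre-activated *Rosa26* rtTA3-IRES-mKate2 allele and a doxycycline (Dox)-inducible, GFP-linked *Smad4* shRNA at *Col1a1*. All 4 groups share these alleles, and the labels do not say which of the study's *Smad4* hairpins a line carries. Smad4-off cells stayed on Dox, and Smad4-on cells had been without Dox for 5 days before plating. From 24 h after plating, both were treated for 24 h with 100 pM recombinant TGFβ1 or with 2.5 µM SB505124. The latter blocks signalling by the type I TGFβ receptor. Each of the 4 groups (SB505124 Smad4-off, SB505124 Smad4-on, TGFβ1 Smad4-off and TGFβ1 Smad4-on) therefore held 2 libraries, 1 per line. Dox was present in every Smad4-off culture and absent from every Smad4-on culture, so the effects of Dox and of *Smad4* cannot be told apart in these libraries. No group was left untreated, so a rise by TGFβ1 cannot be told apart from a fall by SB505124. In what follows, a change with TGFβ1 is relative to SB505124. A change or effect of *Smad4* is a difference between Smad4-on and Smad4-off cells, which also differ in Dox. Each line comes from a single mouse, and p-values measure the spread between these libraries.

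Glycolysis splits glucose into pyruvate. Glucose enters through GLUT1 (*Slc2a1*), is trapped as glucose 6-phosphate by hexokinases (*Hk1*, *Hk2*), and passes through phosphofructokinase (*Pfkp*), aldolase (*Aldoa*) and phosphoglycerate kinase (*Pgk1*). Lactate dehydrogenase A (*Ldha*) turns pyruvate into lactate, which MCT4 (*Slc16a3*) carries out of the cell, while PDK1 (*Pdk1*) restrains pyruvate dehydrogenase and so the entry of pyruvate into mitochondria. CAIX (*Car9*) is a membrane enzyme that hydrates carbon dioxide outside the cell. Most of these genes are textbook targets of the hypoxia-inducible factors (HIFs), while *Hk1* is usually regarded as the housekeeping hexokinase, and PDAC is known for avid use of glucose.

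Total counts ran from 18389235 to 23440550 per library, and the 10 genes together took 0.305% to 0.504% of them. Levels are given in CPM, the usual unit of counts relative to library size, with library sizes scaled by TMM factors, and 3 counts, taken as the floor of detection, correspond to 0.125 to 0.162 CPM. Only counting error is covered by this floor, since the table holds no molecular identifiers that would mark PCR copies. *Smad4*, the target of the hairpin, lay between 33.7 and 35.5 CPM in the 4 Smad4-off libraries and between 97.4 and 117 CPM in the 4 Smad4-on libraries. Epithelial markers were unequal: *Krt8* and *Krt18* reached at least 236 CPM in every library, whereas *Epcam* had 3 to 39 counts. Of 7 leukocyte markers, 5 never exceeded 3 counts, with *Adgre1* and *Cd3e* at 0, but *Cd68* had 23 to 126. Of 7 fibroblast markers, *Lum* (0 counts) and *Dcn* (at most 3) were at or under the floor, whereas *Pdgfra* (12 to 154), *Pdgfrb* (0 to 653), *Col3a1* (33 to 833) and *Col1a1* (7 to 12305) were not. Of 4 endothelial markers, *Pecam1* had 0 to 5 counts, *Tie1* 0 to 2, *Cdh5* 0 to 54 and *Kdr* 7 to 506. Of 5 acinar markers, 4 never exceeded 3 counts, and *Cela1* had 8 to 32. The summed fibroblast level ran from 10.6 to 668 CPM in TGFβ1 Smad4-on libraries and from 5.84 to 226 CPM in the other 6, and the part of these cells in the results was not tested. In bulk RNA, fewer expressing cells and less RNA per cell cannot be told apart.

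The HIFs bind a short core, written here as ACGTG or GCGTG, and the proximal promoters of all 10 genes were searched for it on both strands. In RefSeq (GRCm38.p6), the 10 genes have 15 annotated starts. Of the 15 windows of 250 bases before a start, 12 held ACGTG or GCGTG, compared with 38.6% of 32851 windows of the same length. Each of the 10 genes had it before at least 1 of its starts, and the share of all genes that did was not counted. ACGTG alone was in 8 of the 15 windows (16.6% of all windows) and GCGTG in 5 (28.2%). A pair of overlapping *Aldoa* windows share 1 ACGTG, and by gene it was found in 7 of the 10, likewise not counted over all genes. The SMAD box CAGAC was in 5 (42.2%), and the E-box CACGTG, which contains ACGTG on both strands, in 1 (6.02%). Such matches are letters in a window and describe neither binding nor use. The sequences of 4 genes that rose with TGFβ1 in Smad4-on cells are shown to let the position of the core be seen. Each is read 5′ to 3′ on the gene's own strand, with ACGTG and GCGTG, or their reverse complements, in capitals. It ends at the RefSeq start or at the first exon of that gene annotated in GENCODE M21, whichever comes first.
Slc16a3 (chr11:120948817-120949052, plus strand): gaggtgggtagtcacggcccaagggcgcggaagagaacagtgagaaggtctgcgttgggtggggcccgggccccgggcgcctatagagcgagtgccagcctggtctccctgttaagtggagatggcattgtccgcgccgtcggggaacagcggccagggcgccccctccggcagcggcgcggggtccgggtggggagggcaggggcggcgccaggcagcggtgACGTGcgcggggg
Hk2 (chr6:82774455-82774704, minus strand): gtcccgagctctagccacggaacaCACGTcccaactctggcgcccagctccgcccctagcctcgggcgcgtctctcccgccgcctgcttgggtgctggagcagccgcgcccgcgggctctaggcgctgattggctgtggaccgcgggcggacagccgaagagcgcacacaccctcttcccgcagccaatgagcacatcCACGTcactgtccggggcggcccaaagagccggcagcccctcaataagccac
Slc2a1 (chr4:119108495-119108710, plus strand): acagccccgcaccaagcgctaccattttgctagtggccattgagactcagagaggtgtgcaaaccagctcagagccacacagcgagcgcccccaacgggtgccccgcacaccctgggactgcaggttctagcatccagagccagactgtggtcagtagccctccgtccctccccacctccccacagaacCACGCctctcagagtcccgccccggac
Ldha (chr7:46845554-46845803, plus strand): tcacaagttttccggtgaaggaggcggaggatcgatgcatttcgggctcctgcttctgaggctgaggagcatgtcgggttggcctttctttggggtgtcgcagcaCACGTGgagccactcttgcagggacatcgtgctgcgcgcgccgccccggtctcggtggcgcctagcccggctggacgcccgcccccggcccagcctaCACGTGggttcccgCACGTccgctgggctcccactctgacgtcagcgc
None of the 4 stretches overlaps an annotated exon of its own gene, and exons of other genes were not searched. Those of *Slc16a3* and *Ldha* lie within the span of the gene as the count table gives it. *Slc16a3* has 1 ACGTG, *Hk2* has 2 and *Slc2a1* has 1 GCGTG. The full windows of *Slc16a3* and *Slc2a1* each hold 1 more ACGTG, which is not shown because it reaches into an annotated exon. *Ldha* has 5 matches to ACGTG, because each of its 2 E-boxes is read once from either strand.

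The genes differed widely in level. Per kilobase of transcript, the mean over 8 libraries was 493 CPM for *Ldha*, 345 for *Aldoa*, 142 for *Pgk1*, 49.8 for *Slc2a1*, 33.6 for *Hk1*, 27.9 for *Hk2*, 7.47 for *Pfkp*, 6.58 for *Pdk1*, 2.80 for *Slc16a3* and 0.403 for *Car9*. The ranges over libraries of *Slc2a1*, *Hk1* and *Hk2* overlapped, as did those of *Pfkp* and *Pdk1*, and those of *Slc16a3* with *Pfkp*, *Pdk1* and *Car9*. *Ldha* and *Aldoa* also overlapped, whereas the lowest *Pgk1* value (107) exceeded the highest *Slc2a1* value (76.7). The level of *Slc16a3* varied most, with 27.0 times more CPM in its highest than in its lowest library, against 5.53 times for *Car9* and 1.96 times for *Hk1*.

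**Figure D1:**
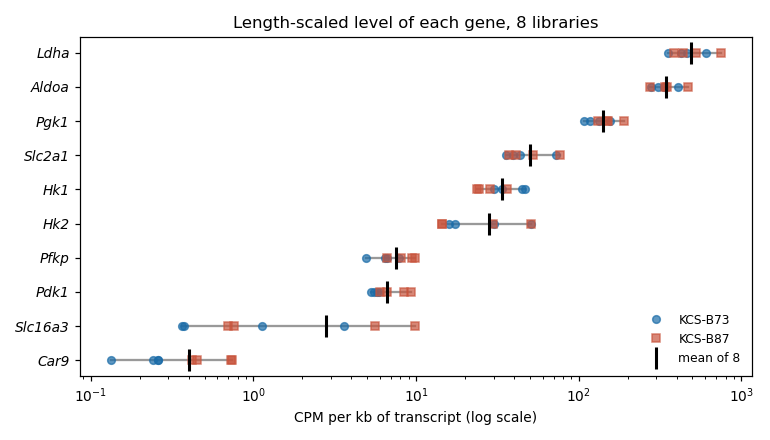
Level of each of the 10 genes per kilobase of transcript (CPM per kb, log scale) in the 8 libraries. Circles are KCS-B73, squares KCS-B87 and black ticks the mean of 8, and the order runs from *Ldha* (mean 493) to *Car9* (mean 0.403), with the widest spread for *Slc16a3*.

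The glucose transporter *Slc2a1* and the hexokinase *Hk2* rose with TGFβ1 when *Smad4* was on, and the hexokinase *Hk1* did not pass that test. Values are given throughout in the order SB505124 Smad4-off, SB505124 Smad4-on, TGFβ1 Smad4-off and TGFβ1 Smad4-on, and gene positions are those of the deposited table (GRCm38). *Slc2a1* (chr4:119108711-119137983) had 124, 138, 153 and 254 CPM in KCS-B73 and 145, 131, 184 and 269 CPM in KCS-B87. Both TGFβ1 Smad4-on libraries stood above the other 6, and the 4 SB505124 libraries lay close together. *Hk2* (chr6:82725025-82774454), the inducible hexokinase, had 104, 94.9, 179 and 304 CPM in KCS-B73 and 86.1, 86.0, 176 and 303 CPM in KCS-B87. It rose in steps that hardly differed between lines: the 4 SB505124 libraries were lowest, the 2 TGFβ1 Smad4-off libraries intermediate and the 2 TGFβ1 Smad4-on libraries highest. *Hk1* (chr10:62268855-62379908) had 289.5, 382, 256 and 399 CPM in KCS-B73 and 203, 244, 208 and 309.7 CPM in KCS-B87. Unlike *Hk2*, it was higher in the Smad4-on library of each pair in both treatments, and it did not separate the treatments.

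The next enzymes of the pathway followed several patterns across the treatments. *Pfkp* (chr13:6579768-6648777) had 88.6, 106, 65.7 and 86.8 CPM in KCS-B73 and 108, 126, 88.2 and 132 CPM in KCS-B87, and in both lines its TGFβ1 Smad4-off library was the lowest. *Aldoa* (chr7:126795234-126800751) had 808, 978, 891 and 1178 CPM in KCS-B73 and 802, 986, 1020.2 and 1362 CPM in KCS-B87, highest with TGFβ1 and *Smad4* in both lines. *Pgk1* (chrX:106187100-106203699) had 262, 350.0, 240.3 and 301 CPM in KCS-B73 and 294, 333, 341 and 423 CPM in KCS-B87. In KCS-B73 the *Pgk1* maximum was under SB505124 and in KCS-B87 under TGFβ1, both with *Smad4* on. *Ldha* (chr7:46841475-46855627), the most abundant of the 10, had 1171, 1533, 1398 and 2006 CPM in KCS-B73 and 1269, 1457, 1744 and 2481 CPM in KCS-B87. Like *Hk1*, *Pfkp*, *Aldoa* and *Pgk1*, it was higher with *Smad4* on in each of the 4 pairs. How many of all genes were so was not counted.

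The genes that set the fate of pyruvate, lactate and acid diverged. *Pdk1* (chr2:71873224-71903858) had 45.7, 41.3, 42.6 and 44.7 CPM in KCS-B73 and 51.3, 46.5, 65.3 and 72.3 CPM in KCS-B87. It was nearly flat in KCS-B73 and higher under TGFβ1 than under SB505124 in KCS-B87. *Slc16a3* (chr11:120948480-120960868) had 1.997, 1.95, 6.04 and 19.0 CPM in KCS-B73 and 4.04, 3.70, 29.8 and 52.6 CPM in KCS-B87. In each line the SB505124 libraries were low in both *Smad4* states, TGFβ1 Smad4-off was higher and TGFβ1 Smad4-on highest, but the TGFβ1 Smad4-on level of KCS-B73 was under the TGFβ1 Smad4-off level of KCS-B87. *Car9* (chr4:43506966-43513729) had 12, 11, 13 and 6 counts in KCS-B73 and 38, 25, 34 and 19 counts in KCS-B87, or 0.306 to 1.69 CPM. The TGFβ1 Smad4-on library was the lowest of each line, at counts too low for small differences to be seen.

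**Figure D2:**
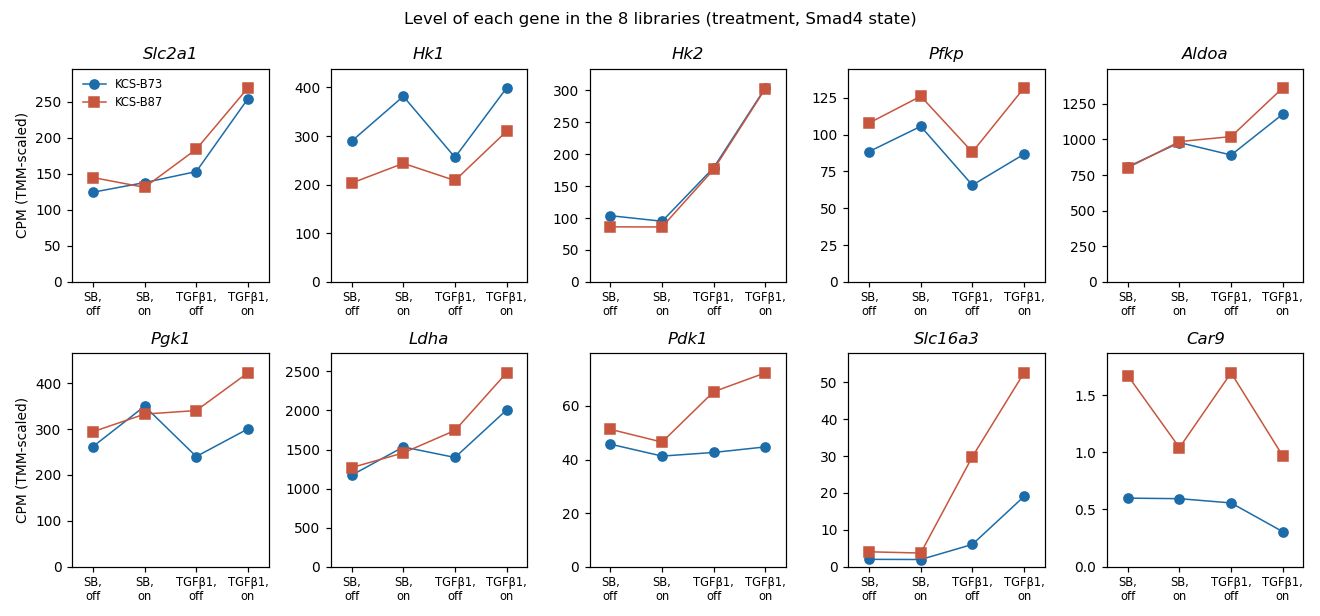
CPM of each gene (y axis from 0, own scale per panel) in the 4 groups (x axis: treatment, SB for SB505124, and *Smad4* state), 1 point per library, circles for KCS-B73 and squares for KCS-B87. *Hk2* and *Slc16a3* climb from the SB505124 groups through TGFβ1 Smad4-off to TGFβ1 Smad4-on (304 and 303 CPM for *Hk2*, 19.0 and 52.6 CPM for *Slc16a3*), and *Car9* does not.

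Some of these counts share sequence with other genes. Of the stretches of 75 bases (the read length) in *Pgk1* transcripts, 52.8% also occur in a transcript of another gene, mainly *Pgk1-rs7*, to which 0 counts were assigned, so the level of *Pgk1* depends on how reads with several alignments were counted, which is not stated in the sources used here. For the other 9 genes the share was at most 4.87% (*Pfkp*). *Pfkp* overlaps *Pitrm1* on the opposite strand, which had 38868 counts in all against 16811 for *Pfkp*. *Car9* overlaps the opposite-strand gene *Gm12454*, with 118 counts against 158 for *Car9*. The library kit keeps strand, but the strand setting of the counting is not stated, and without it the reads of such pairs could not be told apart. The second *Aldoa* row (chr7:126800790-126809108), next to the first, had 10 to 40 counts per library. It ran from 0.510 to 1.997 CPM and was lowest in the TGFβ1 Smad4-on library of each line. Unlike the main row, it fell under TGFβ1 in Smad4-on cells relative to SB505124 (log2 difference -1.18 ± 0.33, edgeR adjusted p 0.0340).

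The question of the first comparison was which genes respond to *Smad4* in the presence of TGFβ. Under TGFβ1, 6 of the 10 genes were higher with *Smad4* on than off at an adjusted p under 0.05, and 0 were lower. The background in that direction was 3.52% of all 14301 genes tested. The 10 were chosen with earlier results of these data known, so this contrast is not independent support. The test was edgeR's quasi-likelihood F-test with the line as a term and Benjamini-Hochberg adjustment over all genes. The median log2 fold change of the 10 was 0.50, against -0.0073 over all genes tested. None of the 6 reached 2-fold. *Hk2* rose by 0.77 ± 0.09 on the log2 scale (SE; edgeR adjusted p 0.00609), *Slc2a1* by 0.64 ± 0.10 (edgeR adjusted p 0.0150) and *Hk1* by 0.60 ± 0.10 (edgeR adjusted p 0.0195). *Ldha* rose by 0.51 ± 0.12, *Pfkp* by 0.49 ± 0.10 and *Aldoa* by 0.41 ± 0.09, and differences between genes were not tested. Their edgeR adjusted p-values were 0.0485, 0.0373 and 0.04999, so that *Aldoa* lay just inside the threshold. *Slc16a3* had the largest log2 difference, 1.16 ± 0.29, but its edgeR adjusted p of 0.0596 did not pass. Its difference was 1.64 in KCS-B73 and 0.81 in KCS-B87 (prior count of 2). *Pgk1* (0.32 ± 0.15), *Pdk1* (0.11 ± 0.15) and *Car9* (-0.81 ± 0.37) did not pass either. The sign of the difference was the same in both lines for all 10 genes, which was not counted over all genes.

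This count rested on the model and on single libraries. With no replicate block, that is with the line left out of the edgeR model, 0 of the members passed (*Hk2* adjusted p 0.0762, *Slc2a1* 0.134), although the lines pair the libraries (median correlation of line deviations between groups 0.758). DESeq2 without the line passed 4 and DESeq2 with the line 7. Without the TGFβ1 Smad4-off library of KCS-B73, 0 of the members passed, and without that of KCS-B87, 2 did. Without the TGFβ1 Smad4-on library of KCS-B73 the count of members was 2, and without that of KCS-B87 it was 1. *Hk2* was the member called in each of the last 3 of these fits.

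Under SB505124, 0 of the 10 genes passed between Smad4-on and Smad4-off cells by edgeR (background 1.59% in either direction). An unadjusted p under 0.05 was found for 3, which was not counted over all genes. DESeq2 with the line also passed 0. Those 3 were *Hk1* (log2 difference 0.33 ± 0.10, unadjusted p 0.0139), *Aldoa* (0.29 ± 0.09, 0.0190) and *Ldha* (0.30 ± 0.12, 0.0382). *Slc2a1* differed by 0.0045 ± 0.10 and *Hk2* by -0.067 ± 0.09, close to zero, while *Slc16a3* differed by -0.098 ± 0.37. The *Smad4* effect under TGFβ1 minus that under SB505124 was 0.84 ± 0.13 for *Hk2* (edgeR unadjusted p 0.00033, adjusted p 0.103), 0.63 ± 0.14 for *Slc2a1* (adjusted p 0.192) and 1.26 ± 0.47 for *Slc16a3* (adjusted p 0.405). It was 0.27 ± 0.14 for *Hk1*, 0.22 ± 0.17 for *Ldha* and 0.12 ± 0.13 for *Aldoa*. By edgeR, 0 of the 10 passed this test of the difference (background 0.196%), and 9 of 10 differences were positive (47.9% of all genes). Again 3 had an unadjusted p under 0.05, which was not counted over all genes. DESeq2 with the line passed 2, *Hk2* and *Slc2a1*, and DESeq2 with no replicate block 1, *Hk2*.

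**Figure D3:**
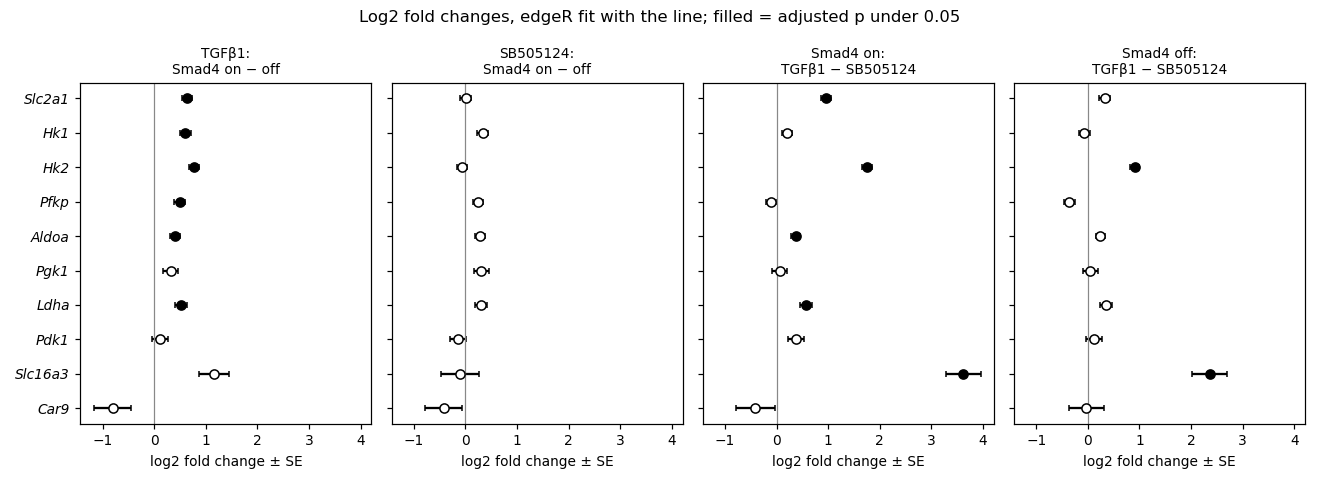
Log2 fold changes of the 10 genes (x axis, ± SE) in the 4 comparisons of pairs of groups, from the edgeR model with the line. Filled points passed an adjusted p under 0.05: 6 genes for Smad4 on minus off under TGFβ1, 0 under SB505124, 5 for TGFβ1 minus SB505124 in Smad4-on cells and 2 in Smad4-off cells.

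The treatments were then compared within each *Smad4* state. These comparisons use the same libraries as the ones above and, with no untreated group, set TGFβ1 against the receptor inhibitor. In Smad4-on cells, 5 of the 10 genes were higher under TGFβ1 than under SB505124 (background 15.6% higher) and 0 were lower. Those over 2-fold numbered 2, *Slc16a3* and *Hk2* (background 5.62%). *Slc16a3* rose by 3.62 ± 0.34 on the log2 scale, or 12.3-fold (edgeR adjusted p 0.00047), *Hk2* by 1.75 ± 0.09, or 3.36-fold (adjusted p 8.71e-05), and *Slc2a1* by 0.96 ± 0.10, or 1.94-fold (adjusted p 0.000734). *Ldha* rose by 0.57 ± 0.12 (adjusted p 0.0105) and *Aldoa* by 0.37 ± 0.09 (adjusted p 0.0240). *Pdk1* (0.38 ± 0.15, adjusted p 0.102), *Hk1* (0.20 ± 0.10), *Pgk1* (0.057 ± 0.15), *Pfkp* (-0.11 ± 0.10) and *Car9* (-0.41 ± 0.38) did not pass. With no replicate block 3 of the members passed, and *Slc16a3* was not among them (adjusted p 0.0527), nor was *Aldoa* (0.0673). The count of members was also 3 without the SB505124 Smad4-on library of KCS-B87 and without the TGFβ1 Smad4-on library of KCS-B87, *Ldha* and *Aldoa* being the ones lost.

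In Smad4-off cells, 2 of the 10 genes were higher with TGFβ1 (background 6.96% higher). An unadjusted p under 0.05 was found for 6, which was not counted over all genes. *Slc16a3* rose by 2.36 ± 0.33, or 5.13-fold (edgeR adjusted p 0.00615), the 1 member over 2-fold (background 3.11%), and *Hk2* by 0.91 ± 0.09, or 1.88-fold (adjusted p 0.00208). *Slc2a1* (0.32 ± 0.10, adjusted p 0.0808), *Ldha* (0.36 ± 0.12, 0.0931) and *Aldoa* (0.24 ± 0.09, 0.143) did not pass. *Pfkp* differed by -0.36 ± 0.10 (adjusted p 0.0641), and *Hk1*, *Pgk1*, *Pdk1* and *Car9* by -0.069 to 0.13. With no replicate block 1 of the members passed, *Hk2*, and *Slc16a3* had an adjusted p of 0.229. Without the SB505124 Smad4-off library of KCS-B87 the count of members was also 1. DESeq2 with the line passed 4 members and a fit of only the 4 libraries compared also 4.

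The lines differed in the level of several genes. Over the 4 conditions, 5 of the 10 genes passed for KCS-B87 minus KCS-B73 (background 18.6% in either direction). *Slc16a3* was 1.53 ± 0.23 higher on the log2 scale in KCS-B87 (edgeR adjusted p 0.00507), *Car9* 1.37 ± 0.26 higher (0.0118), *Pdk1* 0.41 ± 0.11 higher (0.0415) and *Pfkp* 0.39 ± 0.07 higher (0.0113). *Hk1* was lower in KCS-B87 by a log2 difference of -0.45 ± 0.07 (edgeR adjusted p 0.0062). For *Pdk1* and *Car9* the 4 libraries of the lines did not overlap, *Car9* at only 6 to 38 counts. The share of all genes without overlap was not counted. Without the TGFβ1 Smad4-off library of either line, 2 members passed. Each line is a single culture history, so this is a difference between 2 lines.

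Responses to *Smad4* and to TGFβ1 were also compared between lines. The *Smad4* effect, averaged over treatments, differed between lines for 0 of the 10 genes by edgeR (background 0.406%), and 0 had an unadjusted p under 0.05. DESeq2 with the line also passed 0 members. The TGFβ1 effect in KCS-B87 minus that in KCS-B73 was positive for all 10 genes (50.6% of all genes). Its median was 0.27 on the log2 scale, against 0.0038 over all genes. A positive value need not mean a larger effect: with *Smad4* on, *Pfkp* changed by -0.28 in KCS-B73 and 0.063 in KCS-B87 (prior count of 2). By edgeR 0 of the 10 passed, as did 0 of all genes (background 0%). Of the 10, 4 had an unadjusted p under 0.05, which was not counted over all genes. These were *Pdk1* (0.49 ± 0.11), *Pgk1* (0.45 ± 0.12), *Slc16a3* (0.89 ± 0.35) and *Ldha* (0.29 ± 0.11). *Pgk1* went opposite ways in Smad4-on cells, by -0.22 in KCS-B73 and 0.35 in KCS-B87 (log2 CPM, prior count of 2). *Hk2* responded alike, with 1.68 and 1.81.

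**Figure D4:**
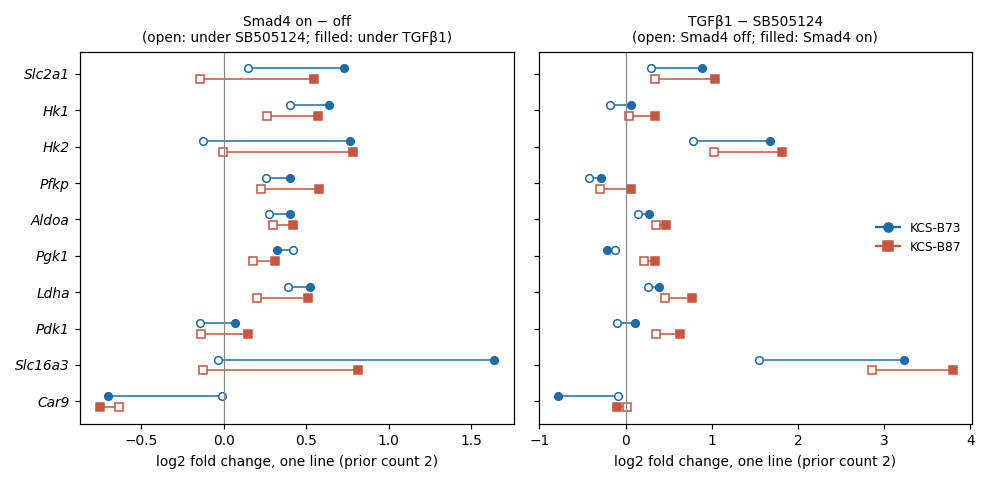
Log2 fold changes within each line (x axis, prior count of 2), for Smad4 on minus off (left; open under SB505124, filled under TGFβ1) and for TGFβ1 minus SB505124 (right; open Smad4 off, filled Smad4 on). Circles are KCS-B73 and squares KCS-B87; for *Slc16a3* the TGFβ1 effect in Smad4-on cells was 3.23 and 3.79.

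Within lines, the 10 genes did not move as a block. Over the 8 libraries, with each line centred on its mean log2 CPM, Pearson's r between pairs of the 10 ran from -0.77 to 0.99. The median was 0.58 over 45 pairs, and 5 pairs exceeded 0.9, with no such values computed for pairs of other genes. *Car9*, with few counts, had a negative r with each of the others, from -0.77 (*Aldoa*) to -0.11 (*Pdk1*). *Hk2* and *Slc16a3* were the closest pair, and *Aldoa* and *Ldha* also tracked each other (r = 0.98). *Hk1* was nearest to *Pgk1* (r = 0.90) and *Pfkp* was nearly unrelated to *Slc2a1* (r = 0.024). These points share 4 conditions and 8 libraries, and the values are descriptive. The genes whose pattern was most like that of *Slc16a3*, among 14300 others and by the same measure, were *Tead1* (r = 0.999), *Trac* (r = 0.998) and *Rnf19b* (r = 0.997). *Tead1*, a DNA-binding partner of YAP, ran from 282 to 472 CPM, *Rnf19b*, a ubiquitin ligase, from 15.4 to 216 CPM, and *Trac*, a T cell receptor segment, had only 6 to 37 counts.

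The rest of the pathway was read from lists of other genes, also chosen with earlier results of these data known. Among 20 tested glycolytic enzymes outside the 10, 2 passed for Smad4 on minus off under TGFβ1, both higher (background 6.8% in either direction): *Gapdh*, glyceraldehyde 3-phosphate dehydrogenase, by 0.39 ± 0.09 (edgeR adjusted p 0.0439) and *Eno1*, enolase, by 0.37 ± 0.08 (0.0423). With no replicate block neither passed (adjusted p 0.162 and 0.516). Their transcripts share 22.6% and 23% of their 75-base stretches with other genes. Under SB505124 0 of the 20 passed by edgeR. In Smad4-on cells TGFβ1 split the list, with 7 higher and 7 lower than under SB505124 (background 33.2% in either direction). *Pfkl*, the liver phosphofructokinase, rose by 0.99 ± 0.09 (adjusted p 0.000522) and *Pgam1*, phosphoglycerate mutase, by 0.68 ± 0.11 (0.00423). *Pklr*, the liver and red cell pyruvate kinase, fell from 149 and 25 counts (KCS-B73 and KCS-B87) to 3 and 2. In Smad4-off cells 2 rose and 2 fell (background 13.2%). *Pfkl* rose by 0.59 ± 0.09 (adjusted p 0.00962) and *Bpgm*, which makes 2,3-bisphosphoglycerate, by 1.74 ± 0.25 (0.00675), and *Ldhd*, the D-lactate dehydrogenase, was among those that fell. When the line was left out, *Pfkl* and *Ldhd* in Smad4-off cells no longer passed.

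Sugar and lactate transporters were mostly silent, since 6 of 16 listed were tested. *Slc2a5*, the fructose transporter GLUT5, rose with TGFβ1 in Smad4-on cells from 3 and 1 counts to 37 and 67, and in Smad4-off cells from 1 and 0 counts to 10 and 20. *Bsg*, the chaperone of the lactate transporters, rose by 0.37 ± 0.10 in Smad4-on cells (edgeR adjusted p 0.0293). *Slc2a6* fell by 2.39 ± 0.51 on the log2 scale (adjusted p 0.0120) and *Slc2a9*, a urate transporter, fell by 1.25 ± 0.27 (0.0130), so that 2 rose and 3 fell (background 33.2% in either direction). *Slc16a1* (MCT1), the other main lactate carrier, went the opposite way to *Slc16a3*: it had 209, 186, 146 and 118 CPM in KCS-B73 and 194, 158, 99.3 and 81.6 CPM in KCS-B87. In Smad4-off cells it fell by 0.75 ± 0.12 (edgeR adjusted p 0.0116), 1 of 2 that passed there (background 13.2%). Under TGFβ1, 1 of the 6 passed for *Smad4* (background 6.8%), *Slc2a6* (log2 difference -2.31 ± 0.51, adjusted p 0.0444), with 2 to 37 counts in those libraries. Only *Slc2a5* in Smad4-on cells and *Slc2a9* still passed among these transporters with no replicate block.

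Of 13 genes for pyruvate entry into mitochondria, 0 passed for *Smad4* by edgeR in either treatment. Between treatments, 3 of the 13 differed in Smad4-on cells, a share below the background of 33.2%. *Dlat*, a pyruvate dehydrogenase subunit, rose by 0.39 ± 0.08 (edgeR adjusted p 0.0102), while *Pdp1*, the phosphatase that opposes PDK1, fell by 0.76 ± 0.15 (0.00971) and *Pcx*, pyruvate carboxylase, fell by 1.501 ± 0.24 (0.00394). *Pdp1* also fell in Smad4-off cells, by 0.78 ± 0.15 (0.0207), the 1 of 13 that passed there (background 13.2%). Among 6 tested genes for fructose 2,6-bisphosphate and its control, *Tigar*, a phosphatase that lowers it, rose with *Smad4* under TGFβ1 by 0.50 ± 0.10 (0.0365), the only one of the 6 that did (background 6.8%). With TGFβ1 in Smad4-on cells *Pfkfb3*, which makes it, rose by 1.16 ± 0.19 (0.00454). In all, 1 of the 6 rose and 2 fell there (background 33.2%). *Pfkfb2* fell by 0.98 ± 0.18 (0.00627), and *Fbp2*, a gluconeogenic bisphosphatase, had 10.4, 30.4, 1.63 and 1.17 CPM in KCS-B73 and 2.28, 3.70, 0.299 and 0.0510 CPM in KCS-B87. In Smad4-off cells *Fbp2* was the 1 that passed, lower by a log2 difference of -2.84 ± 0.37 (0.00466). Of the genes named from both lists, *Dlat* and *Pfkfb3* still passed with no replicate block and the others did not.

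In the pentose phosphate branch, which draws glucose 6-phosphate away from glycolysis, 4 of 8 genes fell with TGFβ1 in Smad4-on cells and 0 rose (background 33.2% in either direction). In Smad4-off cells 2 fell, 0 rose (background 13.2%) and 6 did not pass. *G6pdx*, its first enzyme, fell by 0.95 ± 0.14 on the log2 scale in Smad4-on cells (edgeR adjusted p 0.00248), and *Rpia* fell by 0.73 ± 0.15 (0.00997). *Rpia* also fell in Smad4-off cells (by 0.58 ± 0.15, adjusted p 0.0436), with *Tkt*, transketolase (by 0.42 ± 0.09, 0.0264). For *Smad4*, 0 of the 8 passed by edgeR in either treatment. Of the 2 tested gluconeogenic genes, *Pck2*, the mitochondrial PEP carboxykinase, fell by 1.19 ± 0.33 with TGFβ1 in Smad4-on cells (0.0306). Without the line in the model *G6pdx* and *Rpia* still passed in Smad4-on cells, and the 2 calls in Smad4-off cells and that of *Pck2* were lost.

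Hypoxia-responsive genes outside the 10 followed TGFβ1 in both directions. Of 27 tested, 15 rose and 3 fell under TGFβ1 when *Smad4* was on (background 33.2% in either direction), and the median change of all 27 was 0.83 on the log2 scale. With *Smad4* off, 7 rose and 3 fell (background 13.2%), 17 did not pass, and this median was 0.31. *Bhlhe40*, a transcriptional repressor, had 51.7, 65.4, 202 and 518 CPM in KCS-B73 and 44.4, 42.7, 219 and 357 CPM in KCS-B87. It rose by 3.02 ± 0.18 in Smad4-on cells (edgeR adjusted p 0.000114) and 2.15 ± 0.18 in Smad4-off cells (0.00105). *Lox*, the collagen crosslinking lysyl oxidase, rose in both states, from 12 and 1 counts to 269 and 32 with *Smad4* on and from 7 and 0 counts to 95 and 17 with *Smad4* off. *Stc2*, a secreted glycoprotein, fell by 4.01 ± 0.22 (0.0001) and 2.69 ± 0.20 (0.000735). *Selenbp1* fell in Smad4-on cells from 47 and 163 counts to 3 and 0 (edgeR adjusted p 0.00152). Leaving out the replicate block lost the calls of *Lox* in both states and those of *Bhlhe40* and *Stc2* in neither.

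Under TGFβ1, 7 of the 27 hypoxia-responsive genes differed between Smad4-on and Smad4-off cells (background 6.8% in either direction). Of these, 4 were higher and 3 lower with *Smad4* on. *Ndrg1*, a stress-responsive gene, had 66.9, 74.7, 59.0 and 167 CPM in KCS-B73 and 76.0, 93.4, 71.7 and 167 CPM in KCS-B87. It was high only in the 2 TGFβ1 Smad4-on libraries, with a log2 difference of 1.36 ± 0.10 (edgeR adjusted p 0.0014). *Ndrg1* was also the 1 gene of the 27 whose *Smad4* effect differed between treatments (1.13 ± 0.14, edgeR adjusted p 0.0471; background 0.196%). That call was lost with no replicate block and without the TGFβ1 Smad4-off library of KCS-B73, where 0 of all genes passed this test. *Bhlhe40* rose by 1.02 ± 0.17 (0.0187). *Angptl4*, a secreted inhibitor of lipoprotein lipase, had 95.9, 23.5, 222 and 17.7 CPM in KCS-B73 and 101, 6.32, 281 and 8.21 CPM in KCS-B87. It was lower with *Smad4* on under both TGFβ1 (log2 difference -4.38 ± 0.52, adjusted p 0.00652) and SB505124 (-2.87 ± 0.50, 0.0474), and *Stc2* was lower under TGFβ1 (-1.48 ± 0.23, 0.0152). With no replicate block *Ndrg1* still passed under TGFβ1 (adjusted p 0.0427), and *Bhlhe40* (0.185), *Angptl4* (0.0974) and *Stc2* (0.143) did not. Under SB505124 2 of the 27 passed (background 1.59% in either direction), both lower, *Angptl4* and *Cited2*, a brake on HIF activity (-0.65 ± 0.09, 0.0256). Neither passed with no replicate block (adjusted p 0.540 and 0.315).

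**Figure D5:**
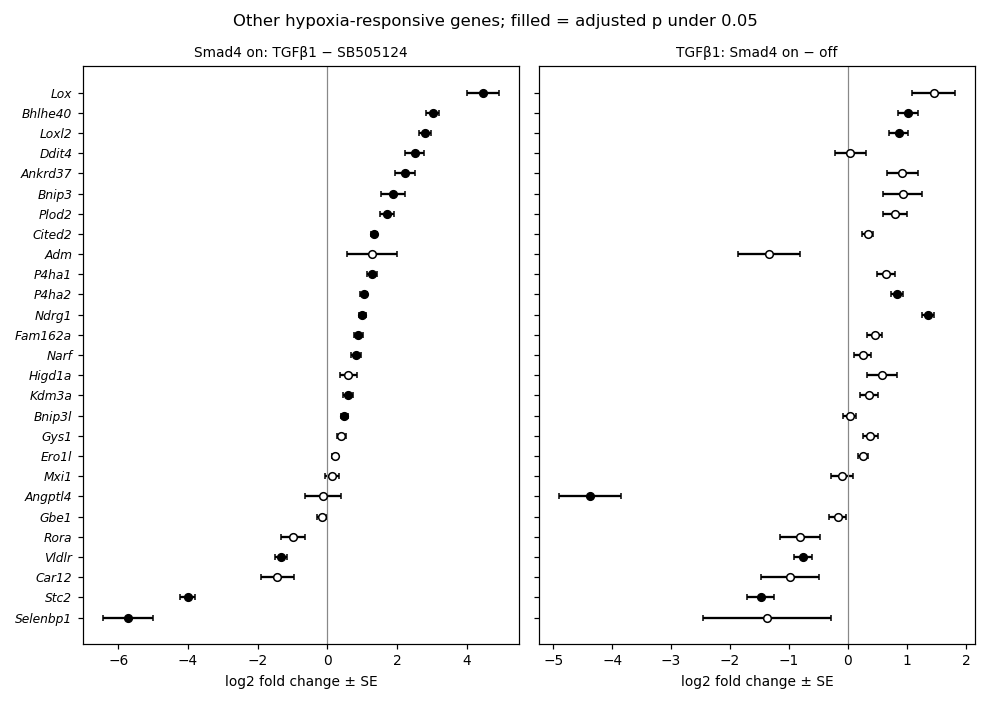
Log2 fold changes (x axis, ± SE, edgeR model with the line) of the 27 tested hypoxia-responsive genes outside the 10, for TGFβ1 minus SB505124 in Smad4-on cells (left) and for Smad4 on minus off under TGFβ1 (right). Filled points passed an adjusted p under 0.05, 18 on the left and 7 on the right, with *Ndrg1* at 1.36 and *Angptl4* at -4.38 on the right.

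Genes for oxygen sensing and for the HIF subunits, listed together, did not share one direction. Of 9 tested, 1 rose and 2 fell with *Smad4* under TGFβ1 (background 6.8% in either direction), and 0 passed under SB505124 by edgeR (1.59%). With TGFβ1 in Smad4-on cells 1 rose and 3 fell (33.2%), and in Smad4-off cells 1 rose and 1 fell (13.2%). *Egln1* (PHD2), the prolyl hydroxylase that marks HIF-α subunits for degradation in oxygen, rose with *Smad4* under TGFβ1 by 0.43 ± 0.08 (edgeR adjusted p 0.0250) and with TGFβ1 in Smad4-on cells by 0.70 ± 0.08 (0.000969). *Egln3* (PHD3) was lower with *Smad4* under TGFβ1 (log2 difference -1.23 ± 0.15, adjusted p 0.00656) and with TGFβ1 in Smad4-on cells (-1.04 ± 0.15, 0.00252). *Epas1*, which encodes HIF-2α, was lower as well (-1.84 ± 0.32, 0.0213, and -2.19 ± 0.32, 0.00262), at 9 to 74 counts. In Smad4-off cells *Egln1* was higher with TGFβ1, by 0.32 ± 0.08 (0.0431), and *Egln2* was lower (-0.44 ± 0.08, 0.0169). With no replicate block *Egln1* (0.116), *Egln3* (0.366) and *Epas1* (0.169) did not pass for *Smad4* under TGFβ1, nor did the treatment calls of *Egln3* (0.208) and, in Smad4-off cells, *Egln1* (0.112). Of 5 tested carbonic anhydrases other than *Car9*, *Car5b*, a mitochondrial form, was lower with *Smad4* under TGFβ1 (-1.26 ± 0.13, 0.00426), the 1 that passed (background 6.8%). With TGFβ1, 3 of the 5 passed in Smad4-on cells (33.2%) and 1 in Smad4-off cells (13.2%). *Car5b* rose with TGFβ1 in both *Smad4* states, by 0.54 ± 0.14 (0.0225) with *Smad4* on and 1.14 ± 0.13 (0.0032) with *Smad4* off, while *Car8* (-3.22 ± 0.72, 0.0147) and *Car13* (-1.20 ± 0.14, 0.000989) were lower with TGFβ1 in Smad4-on cells. *Car13* still passed with no replicate block, and *Car5b* and *Car8* did not.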

How the data were processed

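The authors deposited 1 table of raw counts per gene for 8 libraries: stranded poly(A) RNA, single-end reads of 75 bp, Trimmomatic 0.36, STAR 2.5.3a on GRCm38 (mm10) and featureCounts 1.6.3, with no pooling or normalization. The settings for strand and for reads with several alignments are not given in the sources used here. Groups and lines come from the sample labels.

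From these counts, edgeR 4.0.16 (R 4.3.3) fitted 14301 genes (filterByExpr, TMM, quasi-likelihood F-test, Benjamini-Hochberg adjustment over all genes) with the 4 groups and the line. The study's DESeq2 analysis names no covariate, and the fit with no replicate block is given beside it. The pairing comes from the line named in the titles, whose deviations correlated at r = 0.642 to 0.774 over 6 pairs of groups. A gene passed at an adjusted p under 0.05. Counts of members by unadjusted p were not set beside a share of all genes. SE is the absolute log2 difference over √F. Values per line use log2 CPM with a prior count of 2. The fit was tested on simulated counts for Smad4 on minus off under TGFβ1, with 200 planted changes of 2 on the log2 scale. With the line in the model, 94% were recovered and 3.59% of calls were false. Smaller changes were not simulated.

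The alternatives were DESeq2 1.42.0, other scalings and filters, a prior count of 0.5, fitting just the 4 libraries of a comparison and removing each library. The 10 members are always named. In each list the passed genes with the largest changes are named, at most 2 each way per comparison (1 gene and 1 allele are not reported here), with the 3 genes most like *Slc16a3*. Members and lists were chosen with earlier results of these data known. Promoters are from RefSeq (GRCm38.p6), other coordinates from the deposited table.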

Additional observations from a re-analysis of the deposited data

How the results depend on the processing

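The counts of members changed with several choices. For Smad4 on minus off under TGFβ1, 6 members passed, against 0 with no replicate block, 3 with library totals only (which shift the median of all genes by -0.12 on the log2 scale, and by -0.13 for TGFβ1 minus SB505124 in Smad4-on cells) and 0 to 4 when a library was left out. For TGFβ1 minus SB505124 in Smad4-on cells, 5 members passed, against 3 with no replicate block and 3 to 5 when a library was left out. In Smad4-off cells 2 members passed, against 1 with no replicate block, 4 in DESeq2 with the line, 5 with no filter on low counts, 4 in a fit of only the 4 libraries compared and 1 to 3 when a library was left out. For the difference of *Smad4* effects 0 members passed, against 2 in DESeq2 with the line, 1 in DESeq2 with no replicate block and 2 with no filter. For the lines, 5 members passed, against 3 with at least 10 counts in every library, where *Car9* was not tested, and 2 to 6 when a library was left out. The lists together had 96 passes over the 5 comparisons and 31 with no replicate block. The causes were not tested.

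Of the values of single genes under an alternative, 1718 kept direction and side of the threshold, 253 no longer passed, 22 newly passed, 31 changed sign and 2 untested values, those of *Car9* for *Smad4* under TGFβ1 in each line, moved by more than the spread. None of those 31 passed in the model reported. With library totals only, these were *Pdk1* for *Smad4* under TGFβ1 (-0.0069), *Slc2a1* for *Smad4* under SB505124 (-0.042; also -0.00095 with no replicate block and -0.0064 in a fit of the 4 libraries), and *Pgk1* for TGFβ1 with *Smad4* on (-0.073), with *Smad4* off (-0.012) and for the difference (-0.061; also -0.0042 with no filter). When a library was left out, the signs of these log2 differences also varied. For *Smad4* under TGFβ1 *Pdk1* ran from -0.086 to 0.29. For *Smad4* under SB505124 *Slc2a1* ran from -0.13 to 0.14, *Hk2* from -0.17 to 0.041, *Pdk1* from -0.32 to 0.026, *Slc16a3* from -0.48 to 0.36 and *Car9* from -0.72 to 0.055. For TGFβ1 with *Smad4* on, *Pfkp* ran from -0.25 to 0.029 and *Pgk1* from -0.17 to 0.30. For TGFβ1 with *Smad4* off, *Hk1* ran from -0.16 to 0.037, *Pgk1* from -0.096 to 0.20, *Pdk1* from -0.031 to 0.29 and *Car9* from -0.20 to 0.091. For the difference, *Pgk1* ran from -0.22 to 0.26.

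Counts limit *Car9* (6 to 38 per library) and the low-count genes named by counts.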
